A study of Mus musculus with 16 samples.

Results

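The MHC class II pathway was followed in RNA of sorted type 2 innate lymphoid cells (ILC2s) through 10 genes, taken by name from a table of 53465 genes. They were the classical chain genes H2-Aa, H2-Ab1 and H2-Eb1, the peptide exchange genes H2-DMa and H2-DMb1, their modulator H2-Oa, the invariant chain gene Cd74, the class II transactivator gene Ciita, and the costimulatory ligand genes Cd80 and Cd86. All 10 were found in the table. MHC class II molecules are pairs of an alpha and a beta chain that carry peptides from endosomes to the cell surface, where CD4+ T cells read them. CD74 fills the peptide groove until the endosome, H2-DM (encoded by H2-DMa and the H2-DMb genes) exchanges the fragment that remains for peptide, and H2-O (H2-Oa with H2-Ob) restrains H2-DM. CIITA switches on most of these genes together. B cells, dendritic cells and macrophages are the best known expressors, and ILC2s have been described as able to present antigen to T cells.

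The study sequenced RNA of duodenal ILC2s from untreated, specific pathogen free C57BL/6 mice of 6 to 10 weeks, taken from the first 5 cm of the small intestine, in 16 libraries, 4 for each of 4 genotypes. Alox5 KO mice lacked the gene for 5-lipoxygenase, the enzyme that starts leukotriene synthesis, and carried Il13 smart13/smart13. Il25 KO mice lacked the cytokine gene Il25 and carried Arg1 Yarg/Yarg with Il13 smart13/smart13, and St2 KO mice lacked the IL-33 receptor ST2 on the same pair of alleles. Wild type mice, called WT below, carried Il13 smart13/smart13 alone. Every group thus had this Il13 allele, and the Il25 KO and St2 KO groups differed from WT by Arg1 Yarg as well as by the deletion. The labels name no Cre or tissue restriction and give no sort gate. They do not say whether the 4 libraries of a genotype came from separate mice, and p-values then measure the spread between these libraries, which may be technical. Libraries are named by genotype and replicate, as in Il25 KO 3. The sample codes put replicates 1 and 2 of all genotypes in a set TS, replicates 3 and 4 of Alox5 KO and WT in a set TT, and the same replicates of the 2 genotypes with Arg1 Yarg, Il25 KO and St2 KO, in a set TY. What the letters stand for is not given.

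Class II genes share short promoter elements, of which the X box is bound by RFX and the Y box by NF-Y, and CIITA docks on the proteins bound there. RefSeq promoter windows (GRCm38.p6, 250 bases before to 50 after the start of a transcript) were matched for 6 of the 10 genes, in 7 windows. The X box core AGNNACNG and the Y box core ATTGG were searched on both strands, and no X match shared a base with a Y match in these windows. The 150 bases before the start are shown for 4 of these genes because a Y core lies within it in each, with or without an X core before it. Matches that lie wholly within the bases shown are in capitals.
H2-Aa, chr17:34287824-34287973, minus strand: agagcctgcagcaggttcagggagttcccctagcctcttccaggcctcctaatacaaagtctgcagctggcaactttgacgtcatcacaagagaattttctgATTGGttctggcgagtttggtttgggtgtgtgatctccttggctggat
H2-Eb1, chr17:34305717-34305866, plus strand: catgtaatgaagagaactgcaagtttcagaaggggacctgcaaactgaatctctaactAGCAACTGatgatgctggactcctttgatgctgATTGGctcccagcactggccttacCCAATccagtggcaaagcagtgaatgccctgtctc
H2-DMb1, chr17:34153041-34153190, plus strand: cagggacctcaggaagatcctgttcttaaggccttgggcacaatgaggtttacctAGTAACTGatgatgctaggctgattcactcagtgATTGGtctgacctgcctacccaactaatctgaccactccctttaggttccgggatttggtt
H2-Oa, chr17:34092229-34092378, plus strand: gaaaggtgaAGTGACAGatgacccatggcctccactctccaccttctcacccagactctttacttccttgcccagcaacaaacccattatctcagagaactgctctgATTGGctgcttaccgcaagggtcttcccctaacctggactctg
Counted from the start, which follows the last base shown, an X core of H2-Eb1 began at position -92 and a Y core at -59, and a Y core on the other strand (CCAAT) followed at -35. H2-DMb1 had the same order, with an X core at -95 and the Y core at -61. H2-Aa had a Y core at -48 and no exact X core in its window, and H2-Oa had a Y core at -43 with an X core at -141. Further X matches lay outside the bases shown or ran past their end. They began at -7 (other strand) and 32 in H2-Eb1, at -162 (other strand) and 2 in H2-DMb1, and at -186 and -3 (both on the other strand) in H2-Oa, so each of these 3 windows held 3 X matches. Of all 32851 windows, 50.9% held an X core and 37.4% a Y core, so single matches were common. An X core followed within 40 bases by a Y core on the printed strand, a spacing chosen after these sequences were seen, was in 1.01% of them. A match is a string in this window and does not show a bound site.

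The libraries held 2086864 to 3216937 counts and 15490 to 16529 detected genes. All 12 ILC2 markers were counted in every library, at different levels. Gata3, the lineage transcription factor, had 527 to 681 CPM (counts scaled to the same library total), and Il17rb, the IL-25 receptor, had 858 to 1031 CPM. Others of the list were lower: Areg had 43.2 to 356 CPM, and Il13 had an average log2 CPM of 2.97. Alox5 had 4.78 to 11.98 CPM in Alox5 KO and 76.0 to 145 CPM in WT libraries. Il25 was at 0 in all 16 libraries, and Il1rl1, which encodes ST2, had 126 to 208 CPM in St2 KO and 169 to 246 CPM in WT libraries, so these counts do not check the Il25 KO and St2 KO labels. The library Il25 KO 3 stood apart in class II transcripts, and the levels, fold changes, spreads and likenesses below are also given without it where it moves them.

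Cd74 was the most abundant of the 10 transcripts for its length. Per kilobase of exon, its level was 109 ± 54.9 CPM (SD over all n = 16 libraries), followed by H2-Oa with 88.2 ± 9.39 and H2-Ab1 with 40.5 ± 29.0 CPM per kilobase. H2-DMa had 31.0 ± 6.41, H2-Eb1 24.5 ± 25.004, H2-Aa 16.3 ± 13.9 and H2-DMb1 8.15 ± 4.13 CPM per kilobase. By these means the modulator gene H2-Oa stood above all 3 classical chain genes. In Il25 KO 3, H2-Ab1 (137.8) and H2-Eb1 (109.8) stood above H2-Oa (84.5 CPM per kilobase). Without division by length, the means were 124 CPM for H2-Oa, 104 for H2-Ab1, 62.0 for H2-Aa and 47.7 for H2-Eb1. The places of H2-Aa and H2-Eb1 thus depend on the exon length used. H2-Ob, which encodes the other chain of the H2-O dimer, had 1.66 ± 0.867 CPM per kilobase. Ciita had 0.472 ± 0.477 CPM per kilobase, Cd86 0.127 ± 0.327 and Cd80 0.057 ± 0.122. Without Il25 KO 3 the order of the first 7 was the same, with Cd74 at 97.6 ± 30.9, H2-Oa at 88.5 ± 9.67, H2-Ab1 at 34.05 ± 13.5, H2-DMa at 31.1 ± 6.63, H2-Eb1 at 18.9 ± 10.8, H2-Aa at 13.4 ± 7.63 and H2-DMb1 at 7.36 ± 2.71 CPM per kilobase (SD, n = 15). Over all 16, neighbours in the order of the 10 genes overlapped within 1 SD, except H2-Oa against H2-Ab1 and H2-DMb1 against Ciita.

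**Figure D1:**
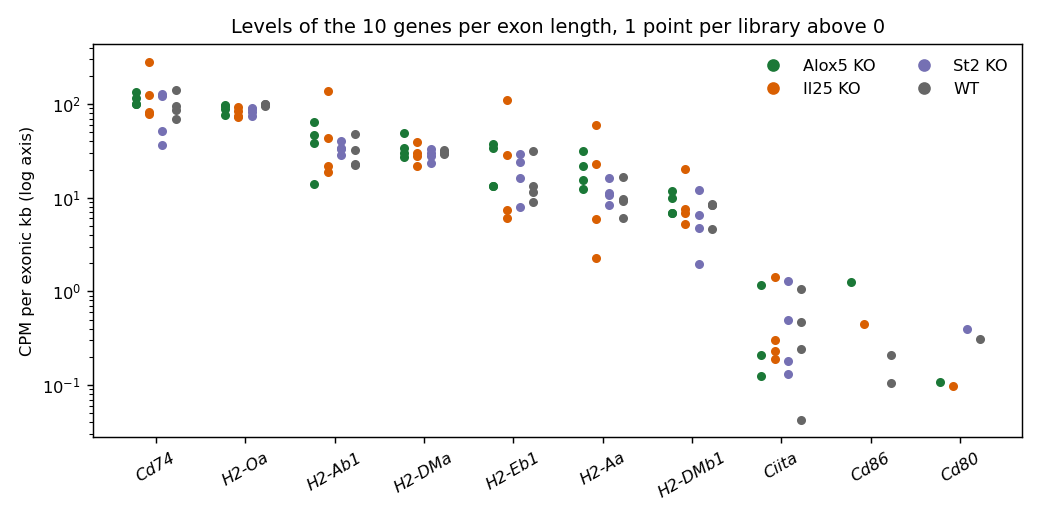
CPM per kilobase of exon (log axis) of the 10 genes, 1 point per library with a count, coloured by genotype and ordered by the mean over all 16 libraries. Cd74 and H2-Oa lead the order, and the points of H2-Oa lie close together. For each classical chain gene, the Il25 KO points spread wider than those of the other genotypes.

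The classical chain genes lie side by side on chromosome 17 (GRCm38, GENCODE M21): H2-Ab1 at 34257689 to 34269419, H2-Aa at 34282744 to 34287823 and H2-Eb1 at 34305867 to 34316674. H2-Aa, the alpha chain of I-A, had 119.8, 81.9, 47.6 and 59.4 CPM in Alox5 KO libraries 1 to 4, 22.3, 87.7, 229.7 and 8.62 CPM in Il25 KO libraries, 42.8, 31.7, 61.4 and 40.9 CPM in St2 KO, and 36.7, 62.9, 35.4 and 22.9 CPM in WT. Both the highest and the lowest library were Il25 KO, 26.6-fold apart, and the ranges of all 4 genotypes overlapped. H2-Ab1, the beta chain of I-A, had 166, 121, 99.5 and 35.9 CPM in Alox5 KO, 56.2, 112, 353.9 and 47.8 CPM in Il25 KO libraries, 87.7, 74.0, 104 and 84.6 CPM in St2 KO, and 59.1, 123, 82.8 and 57.2 CPM in WT. Again Il25 KO 3 was far above the rest, and WT 2 was the highest WT library. H2-Eb1 encodes the beta chain of I-E, which C57BL/6 mice do not show at the surface because their H2-Ea gene is defective. It had 73.7, 65.3, 25.8 and 25.9 CPM in Alox5 KO, 11.9, 55.0, 213 and 14.4 CPM in Il25 KO libraries, 31.7, 15.5, 47.1 and 56.8 CPM in St2 KO, and 17.4, 61.3, 22.6 and 25.7 CPM in WT. Il25 KO 3 was again the highest library, Il25 KO 1 and Il25 KO 4 were the lowest, and the genotypes overlapped. H2-Ea-ps, the defective alpha chain gene, was at 0 in all 16 libraries, which allows 0.933 to 1.44 CPM from counting alone (3 counts of a library's total). In bulk RNA, fewer cells of a type and less RNA per cell cannot be told apart, which holds for all values here.

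Cd74 lies on chromosome 18 (60803848 to 60812652), apart from the chain genes. It had 225, 193, 169 and 168 CPM in Alox5 KO libraries, 130.1, 208, 473.7 and 138 CPM in Il25 KO libraries, 61.0, 85.8, 207 and 213 CPM in St2 KO, and 116, 239, 161 and 144 CPM in WT. Il25 KO 3 was the highest library, St2 KO 1 and St2 KO 2 were the lowest, and St2 KO libraries 3 and 4 lay inside the WT range. The mean was 189 ± 26.9 CPM in Alox5 KO, 237 ± 161 in Il25 KO, 142 ± 79.4 in St2 KO and 165 ± 52.6 in WT (SD, n = 4 each). The Il25 KO mean was 159 ± 43.0 CPM without Il25 KO 3 (SD, n = 3).

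H2-Oa and H2-DMa were steadier between libraries than the classical chain genes. H2-Oa (chromosome 17, 34092340 to 34095234) had 133.8, 109, 123 and 136 CPM in Alox5 KO, 130.8, 103, 119 and 104 CPM in Il25 KO libraries, 117, 125, 106 and 127 CPM in St2 KO, and 135, 139, 140.4 and 139.7 CPM in WT. All Il25 KO and all St2 KO libraries lay below the lowest WT library, while Alox5 KO 4 lay inside the WT range. Such a split of 4 against 4 libraries occurred in 6.78% of the 11742 tested genes for Il25 KO against WT and in 8.47% for St2 KO against WT, and H2-Oa was the only one of the 10 genes with it. None of the 10 split in this way in Alox5 KO against WT (3.84% of all tested genes) or between Il25 KO and St2 KO (5.95%). H2-DMa (34119541 to 34139101), the alpha chain of H2-DM, had 170.4, 93.1, 116 and 102 CPM in Alox5 KO, 137, 95.4, 103 and 74.7 CPM in Il25 KO libraries, 81.9, 113, 95.7 and 105 CPM in St2 KO, and 113, 99.9, 106 and 103 CPM in WT. The WT libraries lay inside the range of each knockout. H2-DMb1 (34153072 to 34160230) was lower, with 3.29 to 33.8 CPM over the 16 libraries, and its highest and second highest values were Il25 KO 3 and St2 KO 1 (20.6 CPM). H2-DMb1 and H2-DMb2 are near-identical copies, so reads that match both could be lost or misplaced in the counting, and the values of both are uncertain. H2-DMb2 had up to 23.6 CPM, in Alox5 KO 2, and was at 0 in 4 libraries.

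**Figure D2:**
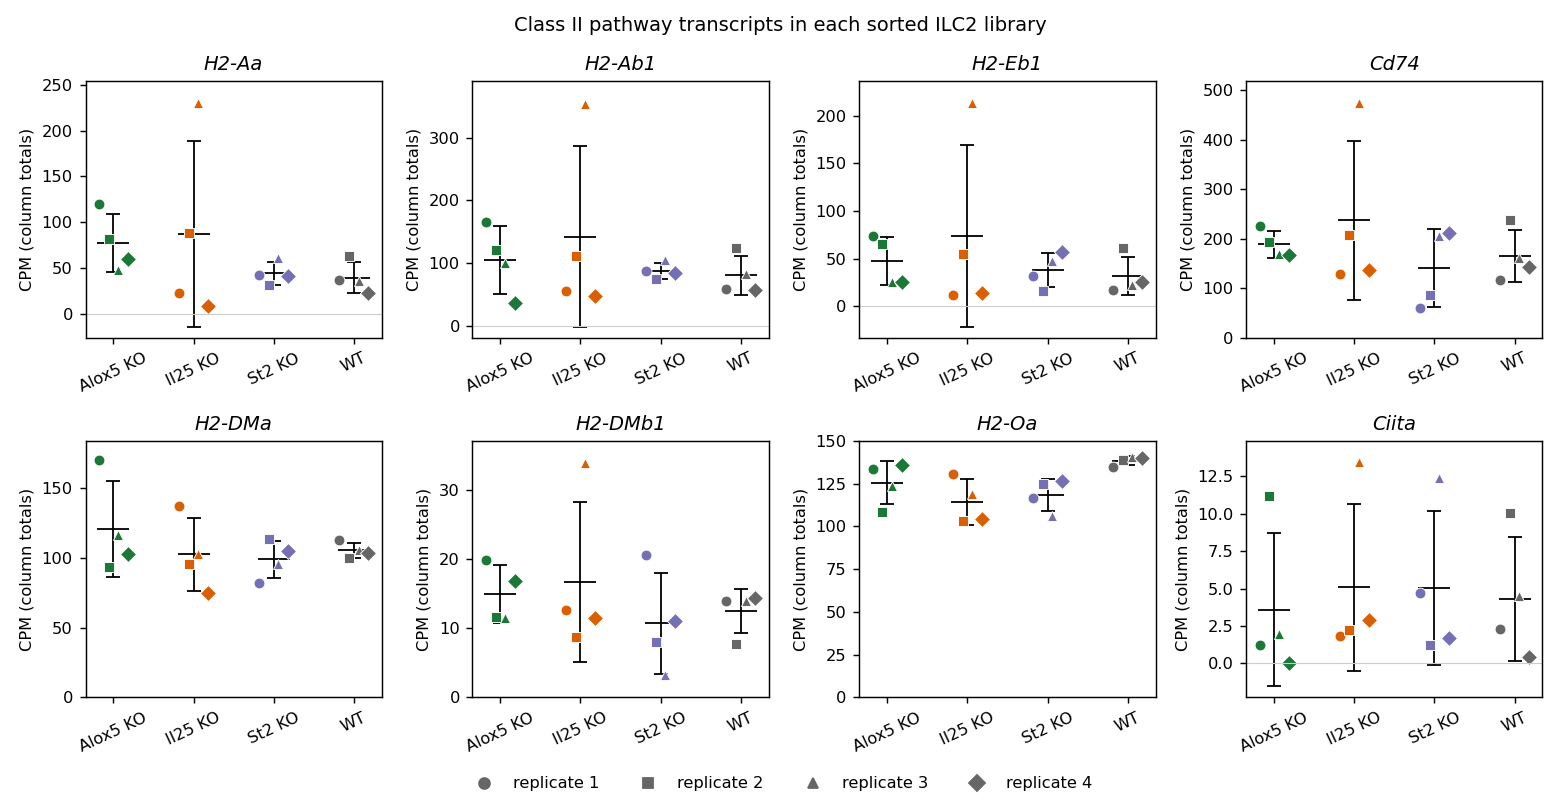
CPM of 8 genes in each library by genotype, with the mean (line) and SD (bars, n = 4 each), and the replicate number as the symbol. Il25 KO replicate 3 (triangle) is the highest of all libraries for H2-Aa, H2-Ab1, H2-Eb1, Cd74, H2-DMb1 and Ciita, at 229.7 CPM for H2-Aa, while the WT values of H2-Oa stay between 134.8 and 140.4 CPM.

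Ciita was low, and the costimulatory ligands were counted in few libraries. Ciita (chromosome 16, 10480059 to 10528418) had 1.19, 11.2, 1.98 and 0 CPM in Alox5 KO libraries, 1.80, 2.20, 13.4 and 2.87 CPM in Il25 KO libraries, 4.72, 1.24, 12.4 and 1.72 CPM in St2 KO, and 2.32, 10.0, 4.52 and 0.409 CPM in WT. 1 library of each genotype thus stood at 10.0 CPM or more, and the others had at most 4.72 CPM. Ms4a1, which encodes the B cell protein CD20, was counted in 4 libraries, with 4.25 CPM in Alox5 KO 2, 3.67 in Il25 KO 2, 10.6 in St2 KO 3 and 5.78 in WT 2, and was at 0 in the other 12. Of the 4 libraries with the highest Ciita, 3 thus had Ms4a1 counts and Il25 KO 3 had none, while Il25 KO 2 had Ms4a1 counts and 2.20 CPM of Ciita. Ms4a1 is 1 of 9 B cell markers and was chosen after its values were seen. The 9 summed to 179.7 CPM in Alox5 KO 2, 105 in Il25 KO 2, 210 in St2 KO 3 and 228 in WT 2. Over all libraries these sums ran from 81.8 to 228 CPM. The part of other cells in the Ciita values was not tested.

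Cd86 (chromosome 16, 36603869 to 36666081), a ligand of CD28 and CTLA4, had 12 counts in Alox5 KO 2, 4 in Il25 KO 3, and 1 and 2 in WT libraries 1 and 2, and it was at 0 in the other 12 libraries, including all St2 KO libraries. Cd80 (chromosome 16, 38455561 to 38496335), which binds the same receptors, had 1 count in Alox5 KO 1, 1 in Il25 KO 4, 4 in St2 KO 3 and 3 in WT 2. Neither gene passed the filter on low counts, and at this depth no genotype difference was detectable in either. Their summed counts over 16 libraries were 19 for Cd86 and 9 for Cd80.

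Markers of other cell types were counted beside the class II genes, and the library with the highest sum differed from list to list. Il25 KO 3 was the only library with counts of Itgax (3.26 CPM) and Clec9a (2.85 CPM), both dendritic cell genes, and it had 50.5 CPM of Irf8, a transcription factor of dendritic cells and B cells, against 1.63 to 12.5 CPM in the others. The 10 dendritic cell markers summed to 22.3 to 85.4 CPM in Alox5 KO, 63.6 to 239.9 in Il25 KO, 27.4 to 43.0 in St2 KO and 42.1 to 108 in WT libraries, with 4 to 8 of 10 detected and Cd209a and Clec10a at 0 in all 16. Il25 KO 2 had the highest of these sums and Il25 KO 3 the next, with 149 CPM. Itgae, which encodes an integrin chain of dendritic cells that resident T cells also make, was the only marker of this list to pass. It had 13.3, 8.07, 41.95 and 23.7 CPM in Il25 KO libraries, against 2.02, 1.87, 1.10 and 17.9 CPM in St2 KO libraries (log2 fold change 1.94 ± 0.46, edgeR adjusted p = 0.040). The groups overlapped through St2 KO 4, and without Il25 KO 3 Itgae had 1.66 ± 0.52 (edgeR adjusted p = 0.22). The 12 macrophage and monocyte markers summed to 64.4 CPM in Il25 KO 3 and to 1.99 to 22.7 CPM in the other 15 libraries, with Fcgr1 at 0 in all. The 9 B cell markers summed to 163 to 179.7 CPM in Alox5 KO, 81.8 to 153 in Il25 KO, 113 to 218 in St2 KO and 176 to 228 in WT libraries, most of it Cd79b, which had 67.0 to 206 CPM in every library, while Pax5 was at 0 in all. Cd79b, which encodes a B cell receptor subunit, fell in Il25 KO against WT (log2 fold change -1.07 ± 0.16, edgeR adjusted p = 0.0019) and against St2 KO (-0.61 ± 0.13, edgeR adjusted p = 0.02285), and it was the only marker of that list to pass in either. Without Il25 KO 3, Cd79b had -1.09 ± 0.17 against WT (edgeR adjusted p = 0.0041) and -0.64 ± 0.15 against St2 KO (edgeR adjusted p = 0.060). The 8 plasma cell markers summed to 284 to 1038 CPM in Alox5 KO, 854 to 1188 in Il25 KO, 394 to 868 in St2 KO and 959 to 1269.8 in WT libraries, and Derl3 was the only 1 of this list to pass in any comparison, lower in Alox5 KO than in WT (-4.07 ± 0.62, edgeR adjusted p = 0.0037). The 10 epithelial markers summed to 214 CPM in Il25 KO 1 and to 12.4 to 57.2 CPM in the other libraries. The 8 T cell markers summed to 96.2 to 202 CPM and the 8 ILC3 and LTi markers to 40.3 to 119.9 CPM over all 16. The part of these markers in the class II values was not tested.

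**Figure D3:**
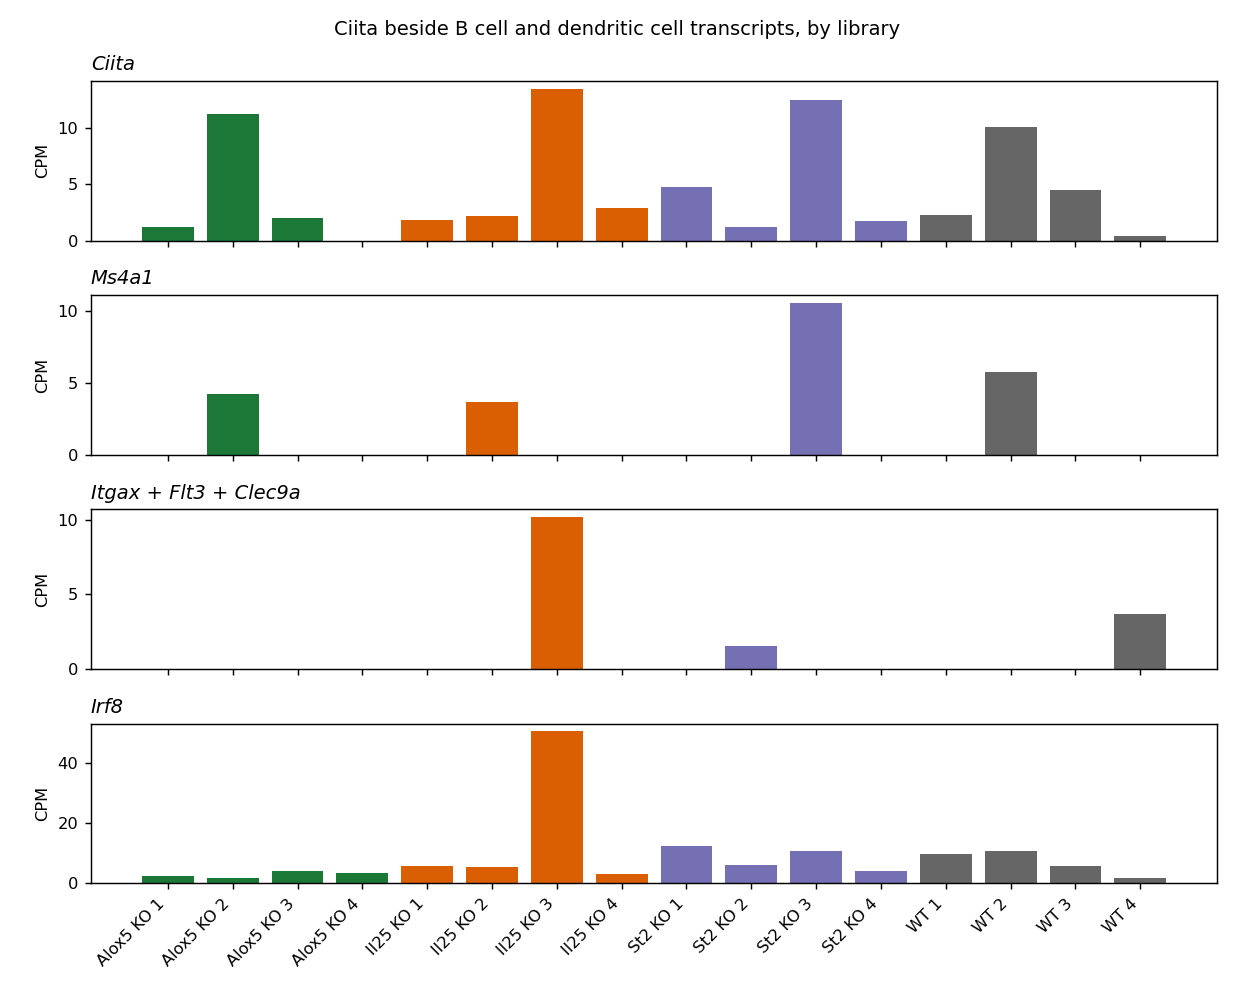
CPM in each of the 16 libraries of Ciita, of the B cell gene Ms4a1, of the dendritic cell genes Itgax, Flt3 and Clec9a summed, and of Irf8. Of the 4 tallest Ciita bars (10.0 to 13.4 CPM), 3 have an Ms4a1 bar beneath them, and the fourth, Il25 KO 3, has none and has the tallest bars of the 2 lowest panels. The genes shown are part of longer lists. All 10 dendritic cell markers summed highest in Il25 KO 2 (239.9 CPM, against 149 in Il25 KO 3). The 9 B cell markers summed to 153 CPM in Il25 KO 3 and to 81.8 to 228 CPM over all libraries.

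Genotypes were compared with edgeR's quasi-likelihood test over 11742 genes, with the set as a term and all 16 libraries sharing 1 estimate of the spread. Of the 10 genes, 8 passed the filter on low counts. None of the 8 passed a Benjamini-Hochberg adjusted p of 0.05 in any of the 4 comparisons. At an unadjusted p under 0.05 there were 0 of 8 for Alox5 KO against WT, 0 for Il25 KO against WT, 1 for St2 KO against WT and 1 for Il25 KO against St2 KO, Cd74 in both cases. Of all 11742 genes, 7.17, 9.3, 7.49 and 11.3% had such a p, in the same order. The unadjusted Cd74 values below are to be read beside these shares. DESeq2 called 0 of the 8 in each comparison as well.

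Alox5 KO against WT asks what leukotrienes contribute, and 12 of 11742 genes (0.102%) passed in it, with none of the 8. H2-Aa had the largest difference, a log2 fold change of 0.96 ± 0.70 (SE) with a 95% interval of -0.54 to 2.47 (edgeR adjusted p = 0.80). It averaged 77.2 ± 31.8 CPM in Alox5 KO and 39.5 ± 16.8 CPM in WT (SD, n = 4 each). Within TS the means were 101 CPM in Alox5 KO and 49.8 in WT, and within TT 53.5 CPM in Alox5 KO and 29.1 in WT, so the direction was the same in both sets. H2-Ab1 and H2-Eb1 had values of 0.38 ± 0.55 and 0.58 ± 0.73, and Cd74 had 0.20 ± 0.34. For H2-Ab1 the means were 143.5 CPM in Alox5 KO and 91.25 in WT within TS, and 67.7 and 70.0 within TT. Set TT fitted alone gave H2-Ab1 a log2 fold change of 0.004. For H2-Eb1 the means were 69.5 CPM in Alox5 KO and 39.35 in WT within TS, and 25.8 and 24.2 within TT. The median over the 8 was 0.24, beside 0.01 over all genes tested. All 8 plasma cell markers tested lay below 0 here, with a median of -1.36, and 3 of the 4 dendritic cell markers tested did, with a median of -0.34. Their part in the class II values was not tested.

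In Il25 KO against WT, which asks about the tuft cell cytokine IL-25, 49 genes (0.417%) passed, with none of the 8, and 4 of the 8 had values above 0. H2-Aa had 0.29 ± 0.83, H2-Ab1 0.04 ± 0.66, H2-Eb1 -0.19 ± 0.87 and Cd74 -0.22 ± 0.41 on the log2 scale. The Il25 KO libraries ranged from 8.62 to 229.7 CPM for H2-Aa, and none of these values exceeded its standard error. Without Il25 KO 3, H2-Aa had -0.25, H2-Ab1 -0.43, H2-Eb1 -0.80 and Cd74 -0.39, so the first pair turned its sign, and 7 of the 8 lay below 0. Without the set term H2-Aa had 1.14, H2-Ab1 0.83, H2-Eb1 1.20, Cd74 0.55 and Ciita 0.18, and 6 of the 8 lay above 0 with a median of 0.49, against -0.09 with the term. With the term Ciita had -1.40 ± 0.98, with an interval of -3.44 to 0.64. Of the 4 dendritic cell markers tested, 3 lay above 0 in this comparison, with a median of 1.12, and both B cell markers tested lay below 0, with a median of -1.32. H2-Oa, whose libraries did not overlap in this comparison, had -0.19 ± 0.13 (interval -0.46 to 0.09, edgeR adjusted p = 0.73).

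In St2 KO against WT, which asks about IL-33 signals, 35 genes (0.298%) passed, with none of the 8, while all 8 had a log2 fold change below 0. Cd74 had -1.07 ± 0.43, with an interval of -2.01 to -0.14 (unadjusted p = 0.0269, edgeR adjusted p = 0.59, range over the other fits 0.0155 to 1). This fit compares libraries within a set, and within TS the Cd74 means were 73.4 CPM in St2 KO and 178 CPM in WT (2 libraries each). Set TS fitted alone gave -1.29, and the fit without the set term gave -0.24. Cd74 was called in the fit without Il25 KO 4 (-1.30 ± 0.24, edgeR adjusted p = 0.0155), a library that belongs to neither genotype and enters through the shared set term and spread. H2-Eb1 had -1.13 ± 0.91, H2-Aa -0.67 ± 0.88, H2-Ab1 -0.62 ± 0.67 and Ciita -1.43 ± 0.97, each with an interval that includes 0, and H2-Oa had -0.17 ± 0.13 (interval -0.45 to 0.10). Without Il25 KO 3, also of neither genotype, H2-Eb1 had -0.47, H2-Aa -0.06, H2-Ab1 -0.17, Ciita -1.08 and Cd74 -0.84. No cell type marker passed the test here, and the lists did not all lie on 1 side. All 4 dendritic cell markers tested lay below 0 (median -1.12), both B cell markers did (median -1.30) and 7 of 8 plasma cell markers did (median -0.99). The 1 macrophage and the 1 epithelial marker tested also lay below 0, and so did 11 of 12 ILC2 markers (median -0.23). Of 4 T cell markers 3 lay above 0 (median 0.52), and of 2 ILC3 and LTi markers 1 did. Cd79a, a B cell receptor subunit gene, had -2.13 ± 0.67 (unadjusted p = 0.0053, edgeR adjusted p = 0.37). The part of other cells in the class II values was not tested.

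The median over the 8 in St2 KO against WT was -0.65, beside 0.01 over all genes tested. All 8 stayed below 0 with DESeq2's size factors and with column totals in place of edgeR's scaling. Without the set term 4 of the 8 were below 0, with a median of 0.00, and without Il25 KO 3 there were 7 of 8, with a median of -0.17. The mean CPM of H2-Aa, without any set term, was 44.2 ± 12.4 in St2 KO and 39.5 ± 16.8 in WT (SD, n = 4 each), so for this gene the sign depended on the set term. The direction shared by the 8 comes from the same 16 libraries and is given as a count.

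The Il25 KO libraries match the St2 KO libraries in alleles and in sets, and 146 genes (1.24%) passed between them, with none of the 8. Cd74 was higher in Il25 KO by 0.86 ± 0.33 (interval 0.14 to 1.58, unadjusted p = 0.0233, edgeR adjusted p = 0.33, range over the other fits 0.00174 to 0.92). Within TS its mean was 169 CPM in Il25 KO libraries, against 73.4 CPM in St2 KO, and within TY 306 CPM in Il25 KO libraries, against 209.7 CPM in St2 KO (2 libraries each). The TY mean of Il25 KO rests on Il25 KO 3, since Il25 KO 4 had 138 CPM and the St2 KO libraries of TY had 207 and 213 CPM. Cd74 was called in the fit without Il25 KO 4 (1.24 ± 0.19, edgeR adjusted p = 0.00174), and without Il25 KO 3 it had 0.46. H2-Aa had 0.97 ± 0.65, H2-Eb1 0.94 ± 0.64 and H2-Ab1 0.66 ± 0.51, and without Il25 KO 3 these were -0.19, -0.33 and -0.26. Over the 8 genes, 7 were above 0 with a median of 0.64, and without Il25 KO 3 there were 2 above 0 with a median of -0.12. The dendritic cell markers lay on the same side as Cd74: all 4 tested were above 0, with a median of 2.19, 3 of them at an unadjusted p under 0.05 and Itgae called, and without Il25 KO 3 the median was 2.07 with none called. Of 8 plasma cell markers, 7 were above 0, with a median of 1.08, and so were 10 of 12 ILC2 markers, with a median of 0.20. The 1 macrophage and the 1 epithelial marker tested were above 0 as well. On the other side, all 4 T cell markers tested (median -0.33) and both ILC3 and LTi markers (median -0.52) were below 0. Of 2 B cell markers, 1 was above 0 and 1 below. The part of other cells in the class II values was not tested. Both comparisons with WT and this one share libraries, so their values are not separate evidence.

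**Figure D4:**
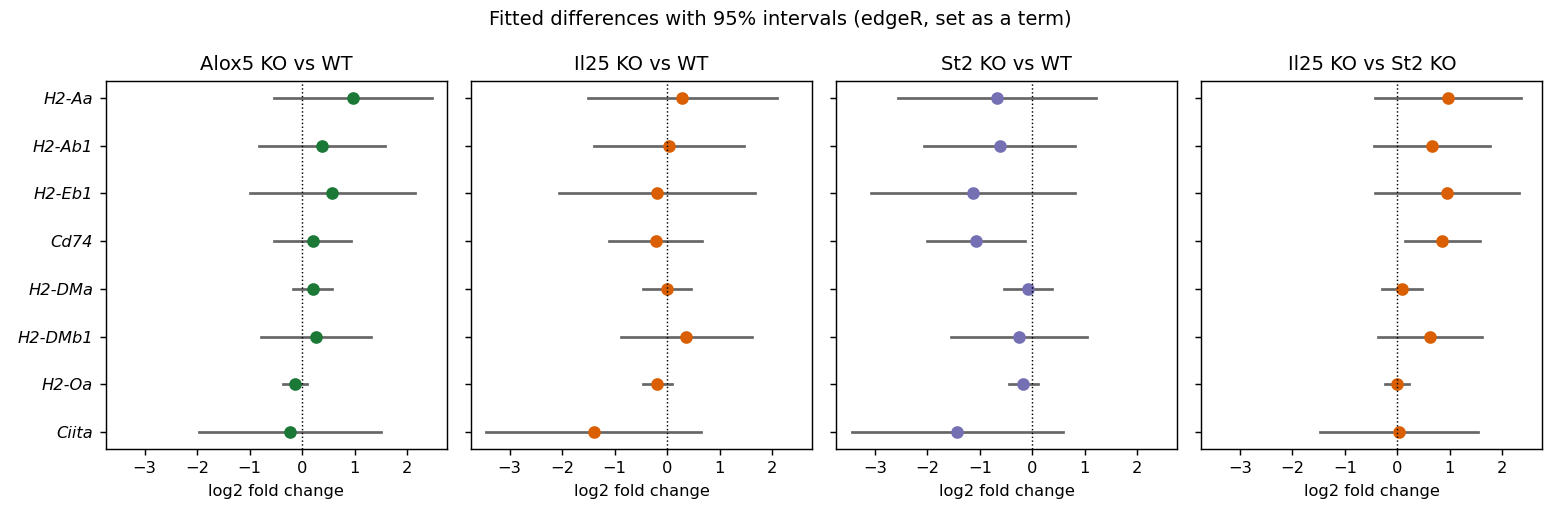
Log2 fold changes of the 8 tested genes (points) with 95% intervals (lines) from the edgeR fit with the set as a term, 1 panel per comparison. The interval of Cd74 excludes 0 in St2 KO against WT (-2.01 to -0.14) and in Il25 KO against St2 KO (0.14 to 1.58), all others include 0, and the intervals of H2-Oa and H2-DMa are the narrowest.

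The classical chain genes and Cd74 varied widely between libraries of the same genotype. These libraries came from different sets, so the spread holds differences between sets as well as within them. Cd74 in St2 KO had 61.0 and 85.8 CPM in TS and 207 and 213 CPM in TY. H2-Aa in Il25 KO had 229.7 and 8.62 CPM within TY. Within genotypes, the coefficient of variation was 87.2% for H2-Aa, 75.5% for H2-Ab1, 107% for H2-Eb1 and 51.7% for Cd74, where counting alone gives 7.89, 6.04, 8.98 and 4.57%. The coefficients were 55.95, 41.4, 60.4 and 32.9% without Il25 KO 3. The SD of log2(CPM + 1) of these 4 within genotypes over all 16 libraries (1.12, 0.85, 1.18 and 0.67) was larger than that of 99.8, 99.9, 99.6 and 99.9% of the genes within 0.5 log2 units of their level, and without Il25 KO 3 than that of 99.6, 99.5, 99.1 and 99.4%. H2-Oa, of like CPM, was at the other end, with a coefficient of variation of 8.31% beside 5.51% from counting and an SD larger than that of only 7.26% of genes of its level. H2-DMa and H2-DMb1 lay between, with coefficients of variation of 21.3% and 53.3%. Their SDs of log2(CPM + 1) were larger than those of 78.2% and 68.3% of genes of their level. Without Il25 KO 3, H2-DMb1 had a coefficient of 37.1%, and its SD was larger than that of 49.1% of such genes. Ciita had 112%, where its low counts alone gave 28.9%.

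The 3 classical chain genes and Cd74 varied together from library to library. Of 28 pairs among the 8 genes, H2-Aa and H2-Eb1 had Pearson's r = 0.87 and Spearman's rho = 0.91 over 16 libraries (permutation p = 2e-05 for each, adjusted over 28 pairs p = 0.00056). H2-Ab1 and H2-Eb1 had r = 0.87 and rho = 0.85 (permutation p = 4e-05 for each, adjusted 0.00056), and H2-Aa and H2-Ab1 had r = 0.81 and rho = 0.85 (permutation p = 0.00028 and 7e-05, adjusted 0.00217 and 0.000653). Cd74 had r = 0.78 and rho = 0.83 with H2-Eb1 (permutation p = 0.00031 and 0.00019, adjusted 0.00217 and 0.00133), r = 0.65 and rho = 0.77 with H2-Aa (permutation p = 0.00899 and 0.00083, adjusted 0.036 and 0.00465), and r = 0.66 and rho = 0.73 with H2-Ab1 (permutation p = 0.00879 and 0.00186, adjusted 0.036 and 0.00868). These values were on the log2(CPM + 1) scale, and they changed little when taken from deviations within genotypes (0.88, 0.87, 0.84, 0.83, 0.70 and 0.69 in the same order).

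These relations did not rest on Il25 KO 3 alone. Without the 2 libraries farthest from the median, Il25 KO 3 among them in each of these 6 pairs, r was 0.82 for H2-Aa with H2-Eb1, 0.87 for H2-Ab1 with H2-Eb1, 0.67 for H2-Aa with H2-Ab1, 0.60 for H2-Eb1 with Cd74, 0.56 for H2-Aa with Cd74 and 0.53 for H2-Ab1 with Cd74. Within the 8 libraries of TS the same 6 values were 0.95, 0.96, 0.94, 0.68, 0.69 and 0.65. H2-Oa had r = -0.05 with H2-Aa, -0.20 with H2-Ab1, -0.19 with H2-Eb1 and -0.06 with Cd74. Ciita had r = 0.65 with H2-Ab1 and rho = 0.53 (permutation p = 0.0058 and 0.0372, adjusted 0.0325 and 0.13), and r fell to 0.39 without the 2 farthest libraries. With H2-Aa its r was 0.39 and with Cd74 0.38, neither past the threshold.

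**Figure D5:**
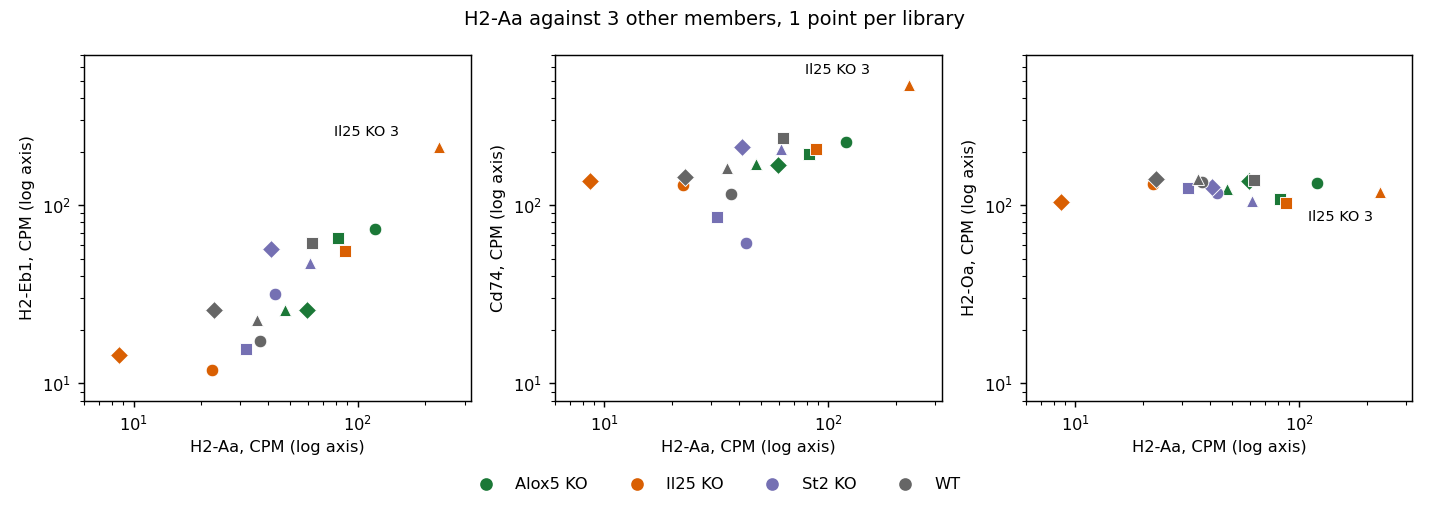
CPM of H2-Aa (x, log axis) against H2-Eb1, Cd74 and H2-Oa (y, log axes), 1 point per library, coloured by genotype and with the replicate number as the symbol (circle 1, square 2, triangle 3, diamond 4). H2-Eb1 (r = 0.87) and Cd74 (r = 0.65) climb with H2-Aa across all genotypes, and H2-Oa (r = -0.05) stays level.

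The genes most like this group were found by correlation, over 16 libraries, with the mean of the standardized log2 CPM of H2-Aa, H2-Ab1, H2-Eb1 and Cd74. That mean was highest in Il25 KO 3 (2.67), Alox5 KO 1 (1.10) and Il25 KO 2 (0.72), and lowest in Il25 KO 4 (-1.38). Of 9936 genes scanned, the first 8 were Tbcel (r = 0.80), Syngr2 (0.76), Gusb (0.74), Tnfrsf10b (0.73), Scrib (0.73), Ifitm3 (0.72), Pccb (0.71) and Lgals3bp (0.71). They were picked for this value and carry no test. Without Il25 KO 3, Tbcel, a tubulin cofactor gene, had 0.88 and the other 7 had 0.49 to 0.64. Ifitm3, an interferon-induced membrane protein gene, had 40.7 CPM in Il25 KO 3 and 3.37 to 16.2 CPM in the other libraries, and Tnfrsf10b, a TRAIL receptor gene, had 36.7 CPM there and 5.41 to 24.8 CPM in the others. The 7 other than Tbcel thus had a lower r without this library.

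Few genes around the pathway passed the test between genotypes. Of 13 class II transcription factor and interferon-gamma receptor genes tested, none passed in any comparison with WT, and 1 was higher and none lower in the comparison of Il25 KO with St2 KO. That gene was Irf1, an interferon-induced activator of Ciita, with 408, 484, 507 and 444 CPM in Il25 KO libraries, against 318, 351, 327 and 253 CPM in St2 KO libraries. The groups did not overlap, and the log2 fold change was 0.61 ± 0.10 (edgeR adjusted p = 0.0019). Irf1 averaged 399 ± 16.2 CPM in WT (SD, n = 4), between the 2 knockouts, and neither passed against WT. The RFX and NF-Y subunits were present in every library: Rfx5 had 13.0 to 33.4 CPM, Rfxap 27.5 to 70.1, Rfxank 31.8 to 58.5, Nfya 26.3 to 59.3, Nfyb 61.3 to 116 and Nfyc 33.7 to 51.9 CPM. The list's median was 0.00 for Alox5 KO against WT, 0.06 for Il25 KO against WT, 0.00 for St2 KO against WT and 0.04 for Il25 KO against St2 KO.

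None of the 9 tested genes of endosomal processing and CD74 partners passed in any comparison. Ctss, which encodes the cathepsin that trims CD74, had 21.9 to 73.7 CPM over the 16 libraries and -0.94 ± 0.38 in St2 KO against WT (edgeR adjusted p = 0.59). Mif, which encodes a ligand of CD74, had 33.4 to 45.4 CPM. Cd44, which encodes the partner of CD74 in MIF signalling, averaged 138 ± 7.33 CPM in Alox5 KO, 244 ± 27.1 in Il25 KO, 263 ± 18.7 in St2 KO and 181 ± 32.1 in WT (SD, n = 4 each), with edgeR adjusted p = 0.39, 0.20 and 0.12 against WT. None of the 3 other class II chain genes tested (H2-DMb2, H2-Eb2 and H2-Ob) passed either.

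Among 8 tested costimulatory ligand and receptor genes, 1 was higher and none lower in St2 KO against WT, and 1 was lower and none higher in Il25 KO against St2 KO, Cd28 in both. Cd28 (chromosome 1, 60716800 to 60773359) encodes a receptor of CD80 and CD86. It had 305.9, 235, 306.1 and 238 CPM in St2 KO libraries and 10.4, 18.5, 22.2 and 12.7 CPM in WT libraries (log2 fold change 4.26 ± 0.37, edgeR adjusted p = 1.28e-06). In Il25 KO it had 2.88 to 24.8 CPM and in Alox5 KO 0 to 4.36 CPM, and its ligands Cd80 and Cd86 were near 0 in all 4 genotypes. Whether the Cd28 difference follows from the loss of ST2 signals was not tested. Ctla4, the inhibitory receptor of the same ligands, ranged from 3.24 to 176 CPM without a call, with St2 KO 4 and WT 3 as the high libraries. Icos had 588 to 996 CPM and its ligand gene Icosl 5.75 to 67.1 CPM in the 16 libraries. The ligand genes Cd274 and Pdcd1lg2 had 50.2 to 83.7 and 66.1 to 156 CPM, so PD-1 ligand transcripts were counted in every library.

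Whether a genotype difference depended on the set was tested with an interaction term. No gene passed, for Alox5 KO against WT between TT and TS or for Il25 KO against St2 KO between TY and TS. Among the 8 genes, H2-DMb1 in Il25 KO against St2 KO differed by 1.98 on the log2 scale between TY and TS (unadjusted p = 0.0465, edgeR adjusted p = 0.999), and no other had an unadjusted p under 0.05. Without Il25 KO 3, which leaves Il25 KO 4 alone in TY, this was 1.02 for H2-DMb1 (unadjusted p = 0.3147), while Cd74 had -1.85 (unadjusted p = 0.000941), H2-Aa -3.16 (unadjusted p = 0.00684) and H2-Eb1 -2.41 (unadjusted p = 0.0309), each with an edgeR adjusted p of 0.9999.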

How the data were processed

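RNA of sorted duodenal ILC2s was measured in 16 libraries. The authors deposited raw read counts per gene, made with STAR 2.4.2a and HTSeq 0.4.1 on GRCm38, with Picard 1.134 and FastQC 0.11.3 also listed, per the submitters' processing notes. Libraries were prepared with Nextera XT, which does not mark strand, per the labels' protocols. The table had 53471 rows, of which 6 with repeated identifiers were dropped, and 3433 rows had no symbol. CPM was computed from column totals, and CPM per kilobase from merged GENCODE M21 exons. No replicate pair agreed within sampling noise (mean chi-square per gene 4.91 to 10.2), so each library counted once.

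Comparisons used edgeR 4.0.16 (R 4.3.3): TMM scaling, filterByExpr by genotype, a robust quasi-likelihood fit with genotype and set as terms, 10 residual degrees of freedom, and Benjamini-Hochberg adjustment over 11742 genes. DESeq2 1.42.0 was an alternative, with other scalings, no filter, no set term, a replicate block, single sets and each library left out. Spread, levels, markers and the interaction were also taken without Il25 KO 3, chosen after seeing the data. Pair correlations used log2(CPM + 1) and 100000 permutations, and likeness log2 CPM with a prior count of 2. Promoters came from RefSeq (GRCm38.p6). By rule the text names the 10, the called genes of the lists and the 8 likest. Other list genes named for their levels were chosen after their values were seen. Members and lists were chosen with earlier results of these data known. Other class II genes that the table does not list by the names searched were not analysed here, and 1 listed marker gene is not reported here. Intervals and limits for a count of 0 cover counting error only.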

Additional observations from a re-analysis of the deposited data

Results flagged for a closer look

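In groups of 4 libraries, 1 library stood far from the other 3 in 9 of the 40 combinations of a gene and a genotype. In 6 of these only 1 library had any count, which meets the criterion by construction. The other 3 were among 33 combinations with counts in at least 2 libraries, where chance gives about 1 in 20. Il25 KO 3 had 33.8 CPM of H2-DMb1, against 12.6 CPM in the next Il25 KO library, and 13.4 CPM of Ciita, against 2.87 CPM. WT 2 had 7.71 CPM of H2-DMb1, the lowest of its group, against 13.9 CPM in the next. The 6 with a single counted library were values of the ligand genes. Cd80 had 0.398 CPM in Alox5 KO 1 (1 count), 0.359 CPM in Il25 KO 4 (1 count), 1.46 CPM in St2 KO 3 (4 counts) and 1.16 CPM in WT 2 (3 counts). Cd86 had 4.64 CPM in Alox5 KO 2 (12 counts) and 1.63 CPM in Il25 KO 3 (4 counts). The H2-Aa, H2-Ab1, H2-Eb1 and Cd74 values of Il25 KO 3 were the highest of all libraries and did not meet this criterion within their group.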

How the results depend on the processing

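Members called stayed at 0 in every fit other than that without Il25 KO 4, which called Cd74 as given above, so with 1 library left out they ranged from 0 to 1 for St2 KO against WT and for Il25 KO against St2 KO, and were 0 for the rest. Of the 240 member values under other settings 219 kept their direction, and 475 of 512 did with 1 library left out. The cause of the moves was not tested. DESeq2 called 52 genes for Alox5 KO against WT, 82 for Il25 KO against WT, 67 for St2 KO against WT and 246 for Il25 KO against St2 KO, with 1 pathway list gene in the first and 2 in the third, and gave Ciita -0.11 in the last. Without the set term there were 95 genes for Il25 KO against WT and 58 for St2 KO against WT, with 2 list genes in the second. In the first of these, Ciita had 0.18, Cd74 0.55, H2-DMa -0.0049 and H2-Eb1 1.20, and in the second Ciita had 0.13, H2-Aa 0.14, H2-Eb1 0.22 and H2-Ab1 0.10.

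TS alone gave 3 genes for Alox5 KO against WT, 9 for Il25 KO against WT and 36 for Il25 KO against St2 KO, with 1 list gene. It gave Ciita 0.027 in the first, H2-Ab1 -0.086 in the second, Ciita -0.48, H2-Oa 0.0081 and H2-DMb1 -0.34 in the last, and H2-DMb1 0.36 for St2 KO against WT. TT alone gave H2-DMb1 -0.0003, and TY alone gave 29 genes, 1 list gene and H2-DMa -0.14. Column totals gave H2-DMa -0.027 for Il25 KO against WT and Ciita -0.011 for Il25 KO against St2 KO.

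Replicate numbers did not pair the libraries: same-numbered deviations correlated at -0.041 to 0.197. A replicate block with the set term gave 21 genes for Alox5 KO against WT, with H2-DMa -0.0001 and H2-Ab1 -0.049 for Il25 KO against WT, and changed no member's call.

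With 1 library left out, Alox5 KO against WT gave 6 (without Alox5 KO 2) to 20 genes (without Il25 KO 1), with 7 without Alox5 KO 3 and 0 to 1 list genes. Il25 KO against WT gave 30 (without WT 2) to 53. St2 KO against WT gave 18 (without WT 1) to 49, with 22 without WT 2. Il25 KO against St2 KO gave 79 (without St2 KO 2) to 179, with 82 without Il25 KO 3, 86 without Il25 KO 2 and 89 without St2 KO 4, and 2 to 3 list genes. Fold changes that crossed 0 ran over these ranges: for Alox5 KO against WT, Ciita -1.75 to 0.40 and H2-DMa -0.013 to 0.35; for Il25 KO against WT, Cd74 -0.58 to 0.10, H2-Aa -0.25 to 0.82, H2-Ab1 -0.43 to 0.43, H2-DMa -0.22 to 0.11 and H2-Eb1 -0.80 to 0.34; for St2 KO against WT, H2-DMa -0.17 to 0.093 and H2-DMb1 -1.17 to 0.057. For Il25 KO against St2 KO they were Ciita -0.87 to 0.78, H2-Aa -0.19 to 1.496, H2-Ab1 -0.26 to 1.04, H2-DMa -0.057 to 0.22, H2-DMb1 -0.0024 to 1.24, H2-Eb1 -0.33 to 1.53 and H2-Oa -0.064 to 0.044. Depth limits Cd80, Cd86 and Ciita most, at 3 counts or about 1 CPM per library.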
